A study of Mus musculus with 26 samples.

Results

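Oxidative phosphorylation genes of the nuclear genome were followed through the chromatin accessibility of their surroundings in mouse Kupffer cells, the macrophages that reside in liver sinusoids. Members were all peaks of the inbred-strain table whose assigned gene begins with Nduf, Sdh followed by A to D, Uqcr, Cox followed by 4 to 8, or Atp5, a rule on gene names that used no measured value. This gave 287 peaks near 89 genes among 96381 peaks in all, or among 96238 on chromosomes 1 to 19, X and Y. A peak is assigned to the gene with the nearest start, so the rule follows names and not proven regulation: 112 of the 287 peaks lay within 1 kb of a start (80 genes, called promoter peaks here), 63 at 1 to 10 kb and 112 farther away, up to 97367 bp. Of the 175 peaks beyond 1 kb, 37 lay inside the gene they were assigned to, 70 only inside another gene and 68 in no protein-coding gene. As an extreme, Atp5o had 39 peaks, and 33 of them lay inside Itsn1, which encodes an endocytic scaffold.

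The assay was ATAC-seq (a transposase cuts and tags open DNA) on sorted Kupffer cells of male mice 8 to 12 weeks old. Per the labels of every sample, mice were fasted overnight, and libraries came from uninjected mice of A/J, of BALB/cJ and of C57BL/6J, which are the controls (n = 4 each). LPS libraries came from C57BL/6J (n = 3) or BALB/cJ (n = 2), taken 2 h after 0.1 mg/kg lipopolysaccharide (LPS), a bacterial cell wall product sensed by TLR4. These replicate numbers follow the labels, and a legend of the study gives those of the LPS groups the other way round. CB6F1/J mice, the F1 hybrid of a BALB/cJ mother and a C57BL/6J father, gave 4 control and 5 LPS libraries. No A/J mouse received LPS, all mice were wild type with no engineered allele named in the labels, and the sort kept F4/80-high CD45+ cells with intermediate CD11b and no CD146. The inbred libraries held 2.08 to 7.54 M tags in peaks, except that replicate 4 of the BALB/cJ controls held 47.2 M, and the hybrid libraries 6.90 to 26.3 M. C57BL/6J controls held 0% mitochondrial tags in peaks and the other inbred groups 18.6 to 28.7%, and mitochondrial peaks entered no fit. All 8 Kupffer cell markers had a promoter peak, and none of the 6 hepatocyte, 4 stellate cell and 4 lymphocyte markers did. A promoter peak was found for 1 of 5 markers of sinusoidal endothelium (Lyve1) and 1 of 4 of neutrophils (S100a8). Library names carry 1 date for the inbred controls and other dates for the C57BL/6J and BALB/cJ LPS libraries, so date and treatment cannot be told apart. The names of all 12 inbred control libraries mention trimming to 30 bases and those of the 5 inbred LPS libraries do not, and the part of this in the LPS results was not tested. The library C57BL/6J LPS replicate 1 stood apart at several induced distal peaks, which are given below with and without it. Replicates are separate samples per the labels, and p-values measure the spread between them. Fewer accessible cells and less access per cell cannot be told apart in bulk libraries.

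Oxidative phosphorylation passes electrons from NADH (complex I, the Nduf genes) and succinate (complex II, the Sdh genes) through complex III (Uqcr) to oxygen at complex IV (Cox), and ATP synthase (complex V, Atp5) uses the resulting proton gradient. A minority of subunits is encoded by mitochondrial DNA, and all others, with the assembly factors that fit the complexes together, must be transcribed in the nucleus and imported. In macrophages exposed to LPS, metabolism is known to shift from respiration toward glycolysis, with accumulation of succinate. The factors NRF1, GABP (an ETS factor, also called NRF2), YY1, Sp1, CREB and the estrogen-related receptors (ERR) are textbook regulators of these genes.

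Promoter sequences of 300 bases (250 before to 50 after the start, RefSeq, GRCm38.p6) were at hand for 75 of the 89 genes, 74 of them with a promoter peak over 79 starts. Letters were searched on both strands, and their share among the 79 was set beside that of 14539 RefSeq promoters that hold any peak and of all 32851 promoters. The NRF1 palindrome of 10 bases that begins GCGCA stood in 7 of 79 (8.86%), against 1.97% of open and 0.971% of all promoters. The 7 belonged to Atp5g2, Atp5k, Cox6a1, Ndufa11, Ndufaf4, Ndufaf5 and Uqcrc1. YY1 letters (AANATGGCG) were found in 15.2% against 4.66% and 2.38%, ERR letters (TNAAGGTCA) in 3.80% against 0.791% and 1.28%, and ETS letters (CCGGAAG) in 25.3% against 16.8% and 8.86%. The Sp1 letters GGGCGG were less frequent than in open promoters, with 45.6% against 60.7% and 35.7% of all promoters. CCAAT stood in 41.8% against 37.1% and 37.4%, the CRE (TGACGTCA) in 5.06% against 3.10% and 1.79%, and the LPS-linked NF-kB letters (GGG, any 2 bases, TTTCC) in 1.27% against 1.85% and 1.63%. AP-1 letters (TGANTCA) were found in 7.59% against 5.41% and 7.81%. No test was run on these shares.

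The promoters below are the Cox6a1 promoter, which holds several of these motifs, and those of Cox7c and Ndufa10, the member promoters of smallest p with LPS in C57BL/6J. Each runs 5′ to 3′ along the gene, and capitals mark motif letters on either strand, where a reverse complement reads CTTCCGG for ETS and CCGCCC for Sp1. Cox6a1 (chr5:115348909-115349208, minus strand) holds NRF1, Sp1, CCAAT and ETS letters, Cox7c (chr13:86046746-86047045, minus strand) 1 AP-1 match, and Ndufa10 (chr1:92473709-92474008, minus strand) 2 Sp1 matches and a CRE.
Cox6a1: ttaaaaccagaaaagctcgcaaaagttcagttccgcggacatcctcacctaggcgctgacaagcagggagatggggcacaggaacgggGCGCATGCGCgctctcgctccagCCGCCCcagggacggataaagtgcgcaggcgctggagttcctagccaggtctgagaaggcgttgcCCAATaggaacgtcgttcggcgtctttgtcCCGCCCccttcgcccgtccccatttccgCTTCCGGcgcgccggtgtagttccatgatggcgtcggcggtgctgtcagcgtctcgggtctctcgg
Cox7c: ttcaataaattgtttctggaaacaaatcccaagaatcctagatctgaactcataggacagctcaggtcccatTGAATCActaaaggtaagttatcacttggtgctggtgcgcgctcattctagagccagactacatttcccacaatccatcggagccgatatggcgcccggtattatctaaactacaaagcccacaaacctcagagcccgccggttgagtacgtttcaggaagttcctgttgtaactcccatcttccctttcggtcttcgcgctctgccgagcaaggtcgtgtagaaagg
Ndufa10: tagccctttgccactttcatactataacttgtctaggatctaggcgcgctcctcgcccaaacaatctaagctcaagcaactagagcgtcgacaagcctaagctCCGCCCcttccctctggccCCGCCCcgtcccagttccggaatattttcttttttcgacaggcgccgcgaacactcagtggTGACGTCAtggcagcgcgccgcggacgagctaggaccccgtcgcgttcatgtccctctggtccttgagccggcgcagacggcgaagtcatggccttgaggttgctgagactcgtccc

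The next 6 sequences are 201-base peaks described below, shown because they differed between strains or flank a gene on either side and opened with LPS, and not as the largest changes. They were read from mm10 on the plus strand. Sdhaf1 -818 bp (chr7:30323093-30323293, upstream of the start of this complex II assembly factor) holds ERR, CCAAT and NF-kB letters. Ndufaf7 +2044 bp (chr17:78939079-78939279, intron 3) and Atp5o +40440 bp (chr16:91891090-91891290, an Itsn1 intron) hold no match of the letters searched, and Ndufa12 +26560 bp (chr10:94225469-94225669, intergenic) holds CCAAT. Uqcrfs1 -19812 bp (chr13:30565028-30565228, intergenic) holds 2 AP-1 matches and CCAAT, and Uqcrfs1 +14408 bp (chr13:30530808-30531008, intergenic) 1 AP-1 match and CCAAT. The first 4 differed between strains, and the last 2 opened with LPS.
Sdhaf1 -818 bp: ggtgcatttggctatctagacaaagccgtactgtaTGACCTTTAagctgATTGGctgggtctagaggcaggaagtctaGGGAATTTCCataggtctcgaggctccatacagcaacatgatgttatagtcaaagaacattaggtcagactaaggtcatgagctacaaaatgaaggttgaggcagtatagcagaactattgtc
Ndufaf7 +2044 bp: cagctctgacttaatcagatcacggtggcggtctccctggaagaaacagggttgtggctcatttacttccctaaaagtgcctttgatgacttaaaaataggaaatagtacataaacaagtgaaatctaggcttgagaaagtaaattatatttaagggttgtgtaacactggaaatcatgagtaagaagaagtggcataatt
Atp5o +40440 bp: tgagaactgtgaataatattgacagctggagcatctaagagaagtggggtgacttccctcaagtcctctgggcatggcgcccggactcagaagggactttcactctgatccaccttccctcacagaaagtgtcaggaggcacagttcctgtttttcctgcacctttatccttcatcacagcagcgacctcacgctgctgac
Ndufa12 +26560 bp: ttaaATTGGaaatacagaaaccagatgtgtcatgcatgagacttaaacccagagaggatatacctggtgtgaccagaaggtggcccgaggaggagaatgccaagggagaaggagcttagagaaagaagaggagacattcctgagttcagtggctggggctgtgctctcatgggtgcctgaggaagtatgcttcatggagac
Uqcrfs1 -19812 bp: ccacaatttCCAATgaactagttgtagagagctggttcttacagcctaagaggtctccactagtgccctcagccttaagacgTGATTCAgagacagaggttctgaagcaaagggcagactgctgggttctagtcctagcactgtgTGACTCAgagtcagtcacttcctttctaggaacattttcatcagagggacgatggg
Uqcrfs1 +14408 bp: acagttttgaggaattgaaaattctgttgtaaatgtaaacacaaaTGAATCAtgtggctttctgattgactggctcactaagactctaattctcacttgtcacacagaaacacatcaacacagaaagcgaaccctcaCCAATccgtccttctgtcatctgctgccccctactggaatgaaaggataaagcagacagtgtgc

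Promoter peaks were found for all 5 complexes, in a peak set merged over control and LPS groups. A promoter peak was present for 32 of 34 complex I genes with any peak, 3 of 4 of complex II, 7 of 7 of complex III, 15 of 18 of complex IV, 12 of 13 of complex V and 11 of 13 assembly factors. Genes with no peak are left out of these counts by the rule. The gene lists held 42 genes for complex I, 4 for complex II, 9 for complex III, 20 for complex IV and 14 assembly factors. Of the 112 member promoter peaks, 81 (72.3%) were in the reproducible peak lists of all 5 inbred groups, against 60.4% of all 21180 promoter peaks. Their median GC content was 60.4%, against 62.2%. The start of another gene lay within 500 bp in 19 (16.96%), against 9.96% of all promoter peaks. Such shared starts included Atp5j with Gabpa (which encodes the DNA-binding subunit of GABP itself), Uqcr10 with Zmat5, Ndufa4 with Phf14, Atp5c1 with Kin, Sdha with Ccdc127 and Ndufaf7 with Cebpz. Tags in such a window cannot be given to either gene.

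Levels are given as normalised counts, tags in the 1000-bp window around a peak divided by the scaled library size, and windows of nearby peaks can share tags. Averaged over the 17 libraries, the highest member promoter was that of Atp5j (coupling factor 6 of ATP synthase), with 268, 332, 313 and 311 in A/J control, 324, 260.4, 289.9 and 284 in BALB/cJ control, 324, 358, 354 and 259 in C57BL/6J control, 397, 377 and 408 in C57BL/6J LPS and 370.3 and 420.4 in BALB/cJ LPS. It was followed by Sdhaf1 -53 bp with a mean over the 17 libraries of 322 and Atp5g1, which encodes the ring subunit c of ATP synthase, with 314. The highest of the other complexes were Ndufv3 (304) and Ndufs8 (285) in complex I, Sdhb (286) and Sdha (109.96) in complex II, Uqcrq (199) and Uqcrfs1 (168) in complex III, and Cox7a1 (280.3) and Cox7a2 (256) in complex IV. Ndufaf7 (269) was second among the assembly factors. With 1 promoter peak per gene and the same average, the lowest was that of Ndufc2, at 9.36, although in C57BL/6J control Ndufa4l2 was lower (5.37 against 11.06). The order varied between groups. Atp5b (the catalytic beta subunit of ATP synthase) was highest in A/J control with a mean of 399.9, Sdhaf1 in BALB/cJ control with 363.6, Atp5g1 in C57BL/6J control with 386 and Atp5j in both LPS groups. These levels are per window of equal length, and they measure openness and not transcription.

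Several members are isoforms known from other tissues or from hypoxia, and 3 of these 6 had a promoter peak in Kupffer cells. That of Cox7a1, the heart and muscle form of a complex IV subunit, was high, with 293 in A/J, 326 in BALB/cJ and 298 in C57BL/6J control (means of 4). Cox6b2, a testis form, reached 10.2 over all 17 libraries, and Ndufa4l2, which is induced in hypoxia, had 12.6 at its highest promoter peak and 57.5 at -1942 bp. Cox4i2 (lung and hypoxia), Cox6a2 (heart and muscle) and Cox7b2 (testis) had no promoter peak. Their highest peaks lay at +2519 bp (52.5), -14800 bp (50.9) and -45751 bp (10.1), the last inside Gabra4.

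**Figure D1:**
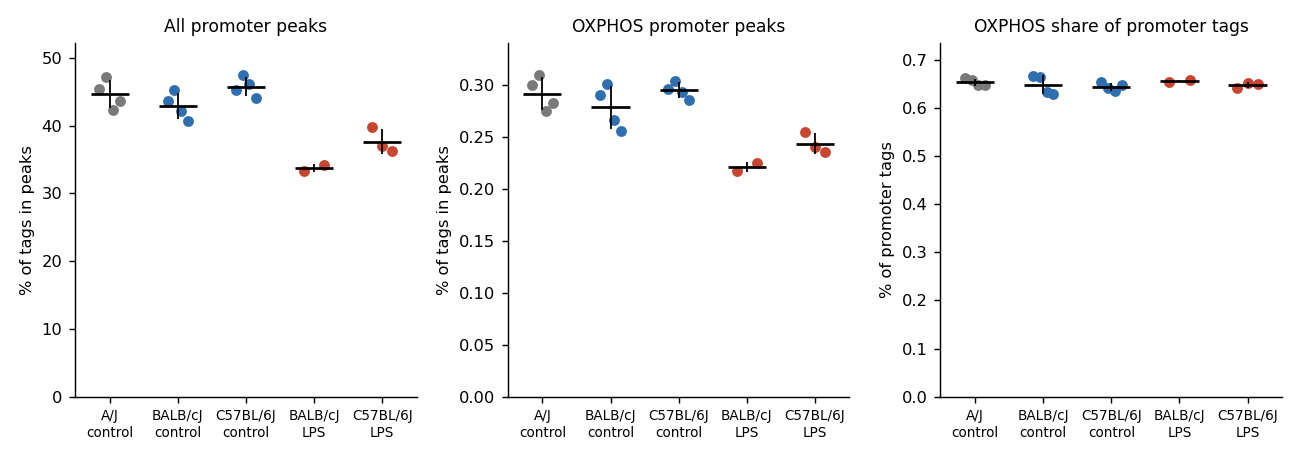
Left, tags in all promoter peaks as a percentage of tags in peaks; middle, the same for the 112 promoter peaks of oxidative phosphorylation genes; right, the latter as a percentage of promoter tags. Each point is a library, bars are mean ± SD, controls are grey (A/J) or blue and LPS libraries red. All promoter peaks took 40.7 to 47.5% in controls and 33.3 to 39.8% in LPS libraries, while the share in the right panel stayed between 0.629 and 0.667%.

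Few oxidative phosphorylation peaks were called between strains at the count limit used (a mean over 16). Between C57BL/6J and BALB/cJ controls 3 of 177 members tested were called (2 higher in C57BL/6J and 1 lower), that is past an adjusted p of 0.05 and a log2 ratio of 1 in either direction, whereas the same rule called 7.29% of all 52386 peaks. Between A/J and BALB/cJ 3 of 182 were called (1 higher in A/J and 2 lower), where 4.58% of all peaks were. Between A/J and C57BL/6J 5 of 185 were called (1 higher and 4 lower), where 7.16% of all peaks were. In the first comparison 94 of the 177 members were promoter peaks, against 16083 of all 52386 peaks. Member promoters called were, in the same order, 1 of 94, 1 of 96 and 3 of 97. All promoter peaks had 2.92%, 1.37% and 3.08% called. Members beyond 1 kb had 2 of 83, 2 of 86 and 2 of 88 called. For all such peaks the shares were 9.23%, 6.002% and 8.999%. At this count limit the gap was thus wider beyond 1 kb, and it was not tested. Without a minimum count the member calls were 15, 8 and 13 of 287. In the same order, all 96238 peaks then had 3595 called higher and 4107 lower, 1406 and 2538, and 2891 and 3553. Members beyond 1 kb then had 5 higher and 8 lower of 175, 2 and 5, and 6 and 3. The shares of all peaks beyond 1 kb were not taken in this setting. With only the groups compared C57BL/6J against BALB/cJ gave 9 members, beside 1991 peaks higher and 2747 lower of all 58462. The 3 comparisons share control libraries and are not independent. Leaving out 1 library moved the count to 5 between C57BL/6J and BALB/cJ (without C57BL/6J replicate 2), to 0 between A/J and BALB/cJ (without BALB/cJ replicate 3; 1 without replicate 4), and to 3 between A/J and C57BL/6J (without A/J replicate 2 or 3 or C57BL/6J replicate 2, 3 or 4).

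The largest strain difference was the Atp5o +40440 bp peak in Itsn1, 40 kb from Atp5o itself, which encodes the stalk protein OSCP of ATP synthase. Its normalised counts were 38.3, 25.7, 33.8 and 27.9 in C57BL/6J, against 1.32, 0.98, 0 and 0.55 in BALB/cJ, and 3.08, 5.47, 2.03 and 0 in A/J control. C57BL/6J stood above every library of the other strains. The log2 ratio was 5.49 ± 0.60 (SE) against BALB/cJ (edgeR adjusted p = 1.46e-08), and A/J against C57BL/6J gave -3.42 ± 0.55 (edgeR adjusted p = 2.61e-05). After LPS the peak kept its strain pattern, with 36.5, 24.6 and 20.7 in C57BL/6J, against 1.74 and 0 in BALB/cJ, the latter from 2 tags in all (edgeR adjusted p = 0.000157). Of the 30-mers in its window 15.7% occurred more than once in the genome. Over all member windows the median of this share was 0.41% and the highest 27.6%, and its part in the differences was not tested.

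Ndufaf7 encodes an arginine methyltransferase of the mitochondrial matrix that is needed to assemble complex I. The intron peak Ndufaf7 +2044 bp had 100.3, 149, 117 and 104 in C57BL/6J, against 17.1, 12.7, 10.7 and 30.0 in BALB/cJ and 4.63, 12.0, 18.3 and 9.39 in A/J control, again without overlap between C57BL/6J and the others. Log2 ratios were 2.56 ± 0.30 for C57BL/6J against BALB/cJ (edgeR adjusted p = 6.94e-08) and -3.42 ± 0.36 for A/J against C57BL/6J (edgeR adjusted p = 6.5e-09), with 17.5% repeated 30-mers. The Ndufaf7 promoter, shared with Cebpz, ran from 245 to 284 in C57BL/6J, from 258 to 386 in BALB/cJ and from 289 to 327 in A/J, and was not called in any pair.

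Sdhaf1 helps to insert iron-sulfur clusters into complex II, and its -818 bp peak went the other way. It had 78.3, 93.1, 58.5 and 33.2 in C57BL/6J, against 200.4, 199.9, 200.0 and 116 in BALB/cJ and 220.5, 202, 128 and 98.6 in A/J. C57BL/6J was lowest in every library. The log2 ratio was -1.42 ± 0.25 against BALB/cJ (edgeR adjusted p = 0.000118), and A/J exceeded C57BL/6J by 1.31 ± 0.26 (edgeR adjusted p = 0.000504). The main Sdhaf1 promoter peak at -53 bp, whose window overlaps this one, was not called (-0.35 ± 0.13, edgeR adjusted p = 0.0981).

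**Figure D2:**
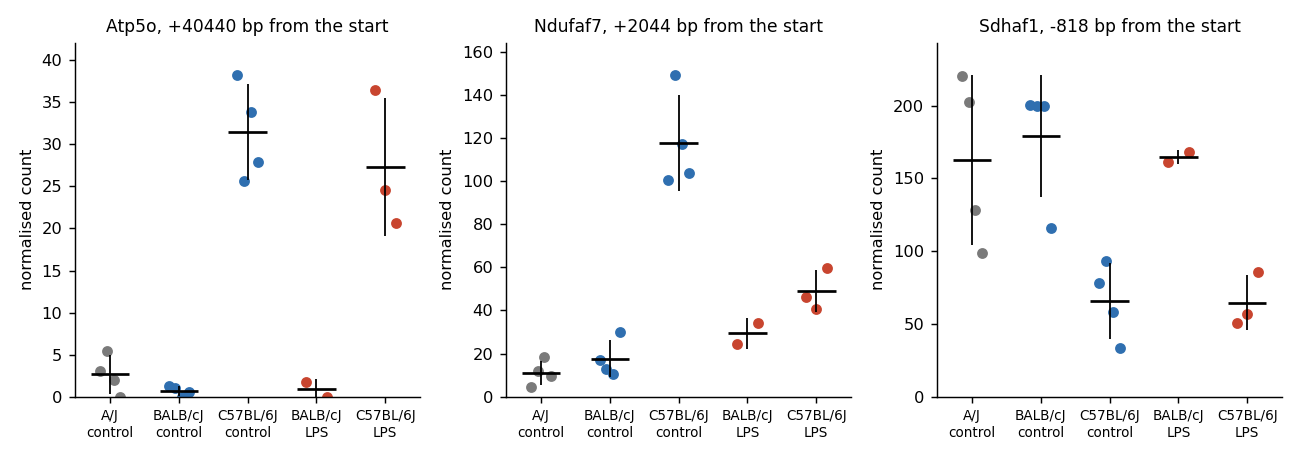
Normalised counts (y axis) by group for the 3 peaks called between C57BL/6J and BALB/cJ controls, with points for libraries and bars for mean ± SD. C57BL/6J libraries are highest at Atp5o +40440 bp and Ndufaf7 +2044 bp, and C57BL/6J controls are lowest among controls at Sdhaf1 -818 bp.

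The other called strain differences belonged to A/J. Ndufv3 -537 bp, which lies inside Wdr4 and upstream of a complex I accessory subunit, had 23.1, 37.2, 20.4 and 18.8 in A/J against 7.91, 11.7, 9.40 and 6.45 in BALB/cJ (log2 1.56 ± 0.47, edgeR adjusted p = 0.0389). These groups did not overlap, yet the call was lost without A/J replicate 1 or 3 or BALB/cJ replicate 1 or 3. Both Itsn1 peaks of Atp5o overlapped between groups: at +70028 bp A/J had 24.7, 13.1, 16.3 and 6.26 and BALB/cJ 34.3, 82.9, 44.3 and 19.3 (-1.54 ± 0.46, edgeR adjusted p = 0.0382), and at +83912 bp the log2 ratio was -1.11 ± 0.32 (edgeR adjusted p = 0.0293), each lost without any of several libraries. The promoter of Ndufa3, a complex I accessory subunit, had 33.9, 14.2, 26.5 and 47.0 in A/J and 62.0, 64.2, 58.5 and 59.8 in C57BL/6J (-1.03 ± 0.28, edgeR adjusted p = 0.0129), so that A/J was lower throughout. This call was lost without A/J replicate 2 (adjusted p = 0.101) and, with a log2 ratio under 1 in size, without A/J replicate 3 or C57BL/6J replicate 2. Cox7a2 +401 bp, in intron 1 of a complex IV subunit, was lower in A/J (-1.20 ± 0.39, edgeR adjusted p = 0.0408), with a call lost without A/J replicate 2, 3 or 4 or C57BL/6J replicate 2, 3 or 4.

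LPS lowered the promoters of every complex in part, and the main promoter peak of none of the 80 genes was called higher by edgeR, although at adjusted p under 0.05 alone BALB/cJ had 3 that were higher. In C57BL/6J 41 of 274 members tested were called (13 higher, 28 lower), where 20.4% of all 91975 peaks were. Among promoter peaks 16 of 112 were called lower and 0 higher, beside 15.6% of all promoter peaks called lower and 2.85% higher. At adjusted p under 0.05 without a limit on size 32 were lower and 0 higher, beside 28.0% of all promoter peaks lower and 4.01% higher. The median log2 ratio of member promoters was -0.42, against -0.40 for all promoter peaks and -0.03 for all peaks. In BALB/cJ 56 of 280 were called (23 higher, 33 lower), where 27.6% of all 93363 peaks were. Here 22 of 111 promoter peaks were called lower and 2 higher, beside 20.0% of all promoter peaks called lower and 5.49% higher. At adjusted p under 0.05 alone 43 were lower and 6 higher, beside 30.7% and 6.89%. The median was -0.59, against -0.45 for all promoter peaks and -0.07 for all peaks. The shares of member promoters called lower were thus no higher than those of all promoter peaks, while in BALB/cJ the count at adjusted p alone and the median lay beyond those of all promoter peaks, a difference that was not tested. The counts moved to 24 without C57BL/6J LPS replicate 3 and to 50 without replicate 1, and in BALB/cJ to 30 without LPS replicate 2.

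By complex, with 1 promoter peak per gene, 6 of 32 complex I promoters were called lower in C57BL/6J (Ndufa10, Ndufa12, Ndufb11, Ndufb5, Ndufc1 and Ndufs7) and 8 in BALB/cJ, with medians of -0.54 and -0.58. In complex II, Sdha was called lower in both strains and the other 2 in neither. In complex III, Uqcr10 and Uqcrb were lower in both and Uqcrc1 in BALB/cJ, of 7. In complex IV, Cox7c and Ndufa4 were lower in both, Cox7b in C57BL/6J and Ndufa4l2 in BALB/cJ, of 15. In complex V, Atp5c1 was lower in both and Atp5l in BALB/cJ, of 12. Among 11 assembly factors Ndufaf3 was lower in BALB/cJ and none in C57BL/6J. Beside these counts stand the 15.6% and 20.0% of all promoter peaks called lower, and no complex was tested against them.

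**Figure D3:**
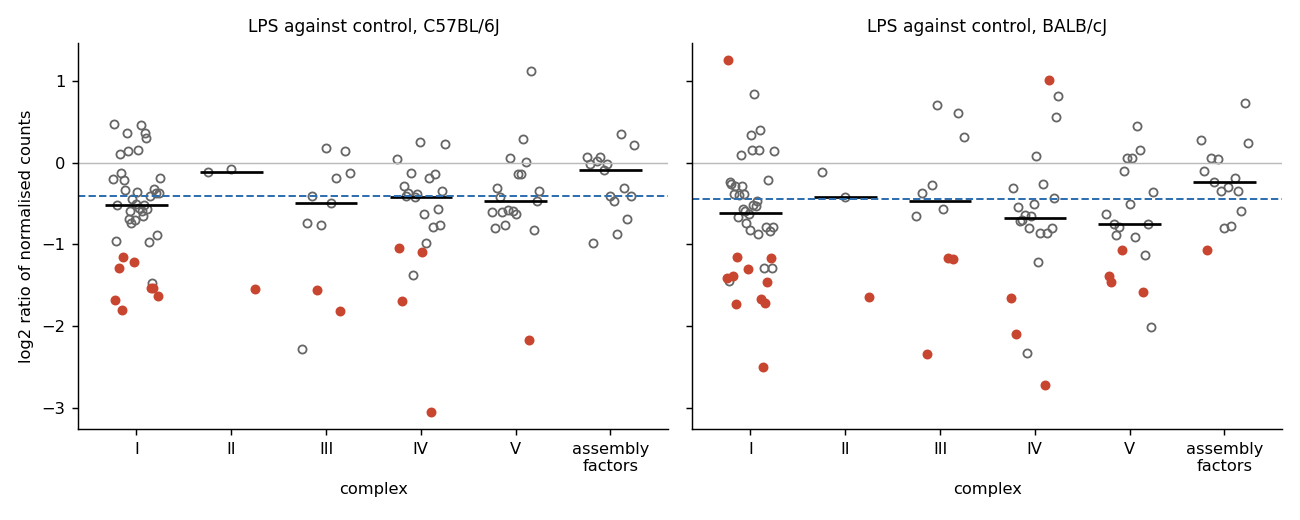
Log2 ratio of LPS against control (y axis) for every member promoter peak tested, by complex and for assembly factors (x axis), in C57BL/6J (left) and BALB/cJ (right). Filled red points were called, black lines are medians of each group and the dashed blue line is the median of all promoter peaks (-0.40 and -0.45). Most points lie below 0, and the called points are below -1 except 2 in BALB/cJ.

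Cox7c, a small subunit of cytochrome c oxidase, had the largest fall of any member promoter in C57BL/6J. Its counts were 137, 156, 149.6 and 154 in C57BL/6J control and 23.9, 22.9 and 8.76 after LPS, and 88.3, 112, 217 and 78.1 in BALB/cJ control and 23.5 and 13.2 after LPS. No LPS library reached a control library. The log2 ratio was -3.05 ± 0.33 in C57BL/6J (edgeR adjusted p = 6.69e-08) and -2.72 ± 0.38 in BALB/cJ (edgeR adjusted p = 1.67e-06). In its window 14.1% of 30-mers were repeated, against a median of 0.41% over member windows.

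The Ndufa10 promoter (-87 bp, chr1:92473745-92473945), shown above with its CRE, fell from 200.0, 238, 134 and 218 to 43.5, 66.2 and 57.4 in C57BL/6J and from 109, 195, 136 and 134 to 37.5 and 49.3 in BALB/cJ. The groups were again apart, with log2 ratios of -1.80 ± 0.24 and -1.73 ± 0.28 (edgeR adjusted p = 1.26e-06 and 1.33e-05). Sdha, the flavoprotein that oxidises succinate, fell from 142, 136, 129 and 124 to 39.3, 42.5 and 53.4 in C57BL/6J and from 98.9, 138, 228 and 116 to 47.0 and 44.9 in BALB/cJ. Its log2 ratios were -1.55 ± 0.24 and -1.64 ± 0.28 (edgeR adjusted p = 1.72e-05 and 2.68e-05), and Ccdc127 starts in the same window. Its partner Sdhb, the iron-sulfur subunit, was not called: 310.2, 292, 333 and 267 against 294, 316 and 245 in C57BL/6J (-0.08 ± 0.16, edgeR adjusted p = 0.751).

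Further falls were seen at Ndufa4, named for complex I but known as a complex IV subunit (-1.70 ± 0.29 in C57BL/6J and -2.10 ± 0.34 in BALB/cJ), at Atp5c1, the rotating stalk of ATP synthase (-2.17 ± 0.38 and -1.59 ± 0.42), at Uqcrb (-1.81 ± 0.36 and -1.18 ± 0.38) and at Uqcr10 (-1.55 ± 0.34 and -2.34 ± 0.45), both small complex III subunits. Each was called in both strains. At Uqcr10 the counts were 46.4, 61.0, 31.2 and 47.9 against 14.0, 14.4 and 18.3 in C57BL/6J and 23.7, 44.9, 33.6 and 31.8 against 6.10 and 7.04 in BALB/cJ, without overlap. Ndufs4, an accessory subunit of complex I, was called in BALB/cJ (-2.50 ± 0.50, 34.3, 35.1, 83.2 and 40.6 against 10.5 and 6.16) and in C57BL/6J reached -0.97 ± 0.40 (edgeR adjusted p = 0.0678). The highest promoters moved less: Atp5j had log2 ratios of 0.29 ± 0.14 and 0.45 ± 0.15 (edgeR adjusted p = 0.125 and 0.0221) and Atp5g1 -0.60 ± 0.16 and -0.88 ± 0.19 (edgeR adjusted p = 0.00566 and 0.000487), neither called.

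The fall of these promoters went with that of promoters as a class. Promoter peaks held 44.1 to 47.5% of tags in peaks in C57BL/6J control and 36.2 to 39.8% after LPS, and 40.7 to 45.2% and 33.3 to 34.2% in BALB/cJ. Member promoters held 0.644 ± 0.008% (SD) of the tags in promoter peaks in C57BL/6J control (n = 4) and 0.648 ± 0.006% after LPS (n = 3), and 0.649 ± 0.020% (n = 4) and 0.656 ± 0.002% (n = 2) in BALB/cJ, with 0.654 ± 0.007% in A/J (n = 4). These ranges overlapped in both strains. The summed promoter count of the 8 Kupffer cell markers also moved, from 617 to 789.9 over the controls to 379.9 to 542 over the LPS libraries, while the promoter of the endothelial marker Lyve1 went from 12.0 to 16.9 over C57BL/6J control to 22.5 to 38.2 after LPS, and lay at 7.9 to 41.6 and 34.3 to 48.8 in BALB/cJ. That of the neutrophil marker S100a8 went from 58.5 to 89.9 in BALB/cJ control to 36.9 to 38.3 after LPS, and lay at 29.6 to 63.8 and 22.5 to 31.4 in C57BL/6J. The part of these markers in the result was not tested. Scaling on promoter peaks in place of all peaks shifts the median of all peaks from -0.03 to 0.37 in C57BL/6J and from -0.07 to 0.35 in BALB/cJ, and puts member promoters at -0.02 and -0.16. The split of called members then becomes 27 higher and 11 lower in C57BL/6J, with 37 and 12 for BALB/cJ, and that of all peaks 19163 and 3163 in C57BL/6J, from 11323 and 7421, and 22435 and 4864 in BALB/cJ, from 15164 and 10584. With total counts the split in BALB/cJ is 25 higher and 23 lower. The directions of single promoter peaks therefore hold relative to the scaling on all peaks, and with scaling on promoter peaks 9 member promoters were called lower in each strain, with 0 higher in C57BL/6J, whereas BALB/cJ had 6.

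Distal members moved in both directions. In C57BL/6J 13 of 162 were called higher, beside 15.1% of all distal peaks, and 12 lower, beside 5.85%. In BALB/cJ 21 of 169 were called higher, beside 19.4%, and 11 lower, beside 8.84%. Of the 201-base sequences of distal members 9.14% held AP-1 letters, against 16.8% of all distal peaks. Of the distal members called higher 5 of 13 in C57BL/6J and 8 of 21 in BALB/cJ did, and 8 peaks are in both the 13 and the 21. The share among all distal peaks called higher was not taken, so these counts have no matching background.

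Uqcrfs1, the gene of the Rieske iron-sulfur protein of complex III, had intergenic peaks at -19812 and +14408 bp that opened with LPS. Its other distal peaks, at -21655 and -3738 bp, were not among those called in both strains. At -19812 bp the counts were 0.58, 0, 1.30 and 2.66 in C57BL/6J control and 4.21, 44.2 and 47.8 after LPS, 0, 0.98, 0 and 1.57 in BALB/cJ control and 35.7 and 43.1 after LPS, and 0 in all A/J control libraries. Every LPS library exceeded every control, although C57BL/6J LPS replicate 1 was far below the others. The log2 ratio was 4.86 ± 0.76 in C57BL/6J (edgeR adjusted p = 1.9e-05; 5.37 without that replicate) and 5.01 ± 0.70 in BALB/cJ (edgeR adjusted p = 2.47e-06). At +14408 bp, on the other side of the gene, it was 1.81 ± 0.53 in C57BL/6J (9.28, 8.02, 5.20 and 6.65 against 9.83, 34.0 and 33.5; 2.19 without LPS replicate 1) and 3.54 ± 0.59 in BALB/cJ (7.91, 4.88, 6.71 and 1.11 against 45.3 and 44.0). In C57BL/6J this call was lost without LPS replicate 2 or 3. The Uqcrfs1 promoter itself, at 230.2, 234, 215 and 164 in C57BL/6J control, had a log2 ratio of -0.77 ± 0.18 (edgeR adjusted p = 0.00153) in this strain and -0.27 ± 0.20 in BALB/cJ, and was not called.

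Other distal peaks that opened lay inside other genes. The peaks +36980 and +35542 bp from Cox4i2 are in an intron of Bcl2l1, which encodes the survival protein Bcl-xL. The first had 6.38, 1.60, 2.60 and 3.99 in C57BL/6J control against 16.9, 35.7 and 43.0 after LPS (2.95 ± 0.55; 3.26 without LPS replicate 1) and 0, 0.98, 0 and 1.75 in BALB/cJ control against 19.2 and 30.8 (4.22 ± 0.63), without overlap. In A/J control, however, it had 6.17, 20.8, 34.6 and 15.7, so that 2 of the 4 lay within the range of the LPS libraries of the other strains. This was seen among the values and not tested, since the peak was under the count limit of the strain comparison. The second rose by 1.45 ± 0.31 and 1.42 ± 0.34. The intergenic peak Atp5o -31034 bp was called higher in both strains, with 1.74, 0, 0 and 1.33 in C57BL/6J control (3 tags in all) against 8.43, 21.2 and 15.1 after LPS (3.85, and 4.13 without LPS replicate 1), and a log2 ratio of 3.12 ± 0.73 in BALB/cJ. Ndufv1 -5999 bp rose by 1.45 ± 0.50 and 2.76 ± 0.56, the call in C57BL/6J being lost without C57BL/6J control replicate 2 or 3 or LPS replicate 2 or 3. Cox4i1 +31445 bp (3.69 ± 0.69) and Atp5o +76545 bp in Itsn1 (2.89 ± 0.62) were called in BALB/cJ and not in C57BL/6J (1.33 ± 0.63 and 1.27 ± 0.56).

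**Figure D4:**
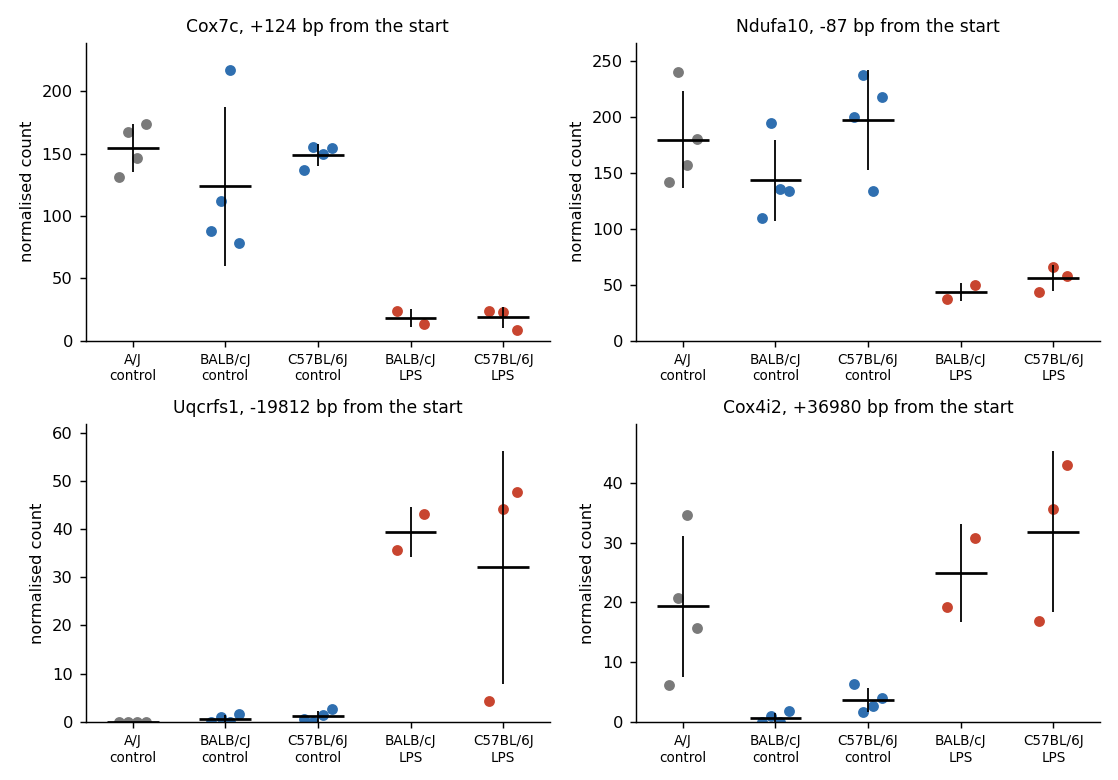
Normalised counts (y axis) by group at 2 promoter peaks that fell and 2 distal peaks that rose with LPS, with points for libraries and bars for mean ± SD. LPS libraries lie below all controls at Cox7c and Ndufa10 and above all controls at Uqcrfs1 -19812 bp, where C57BL/6J LPS replicate 1 is at 4.21, and A/J control reaches 34.6 at Cox4i2 +36980 bp.

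Peaks that closed beyond promoters included Cox4i2 +9471 bp, in intron 4 of the gene, which overlaps Bcl2l1, with 9.28, 11.2, 3.90 and 15.96 in C57BL/6J control, 13.2, 4.88, 9.40 and 8.48 in BALB/cJ control and 0 in all 5 LPS libraries. Against a floor of 3 tags over the group this is at least 10.6-fold lower in C57BL/6J and at least 6.84-fold lower in BALB/cJ, for counting error only. A/J control had 0, 3.28, 2.03 and 1.56. Atp5o +91345 bp in Itsn1 had 11.0, 16.1, 15.6 and 9.31 in C57BL/6J control against 4.21, 1.70 and 0 after LPS (-2.89 ± 0.73, edgeR adjusted p = 0.00319) and 6.59, 9.75, 29.5 and 19.9 in BALB/cJ control against 0.87 and 0.

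The LPS responses of the strains were set side by side. Of 270 members tested for LPS in both, C57BL/6J had 41 called and BALB/cJ 54, and 24 were called in both, of which 16 were lower, 8 higher and 0 opposite. Of 111 promoter peaks among them 79 had a log2 ratio below 0 in both. The matching counts over all peaks were not taken. All promoter peaks had median log2 ratios of -0.40 in C57BL/6J and -0.45 in BALB/cJ, so a shared fall is not particular to the members. The difference of the responses was tested directly: 0 of 283 members were called by edgeR, beside 0.145% of all peaks, with 16 members at an unadjusted p under 0.05 and 1 member called by DESeq2.

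**Figure D5:**
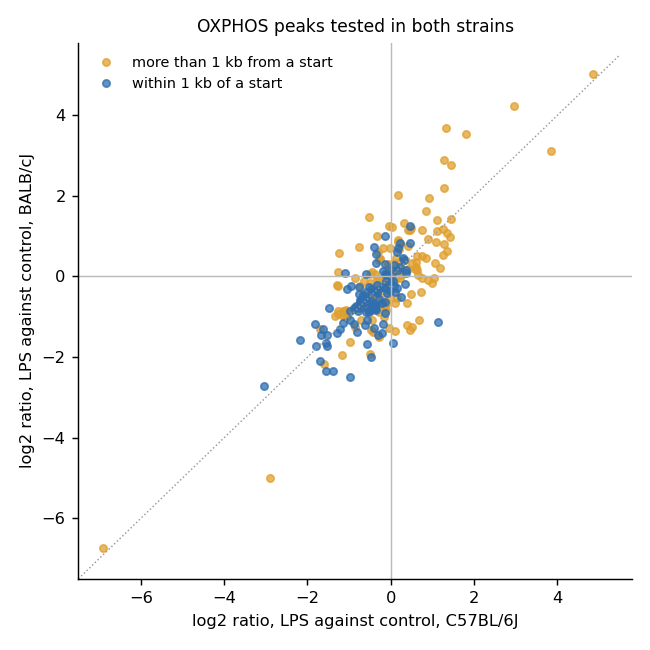
Log2 ratio of LPS against control in C57BL/6J (x axis) and in BALB/cJ (y axis) for the 270 members tested in both strains, blue within 1 kb of a start and yellow farther away; the dotted line marks equal ratios. Of the 111 blue points 79 are below 0 on both axes, and the point at the lower left is Cox4i2 +9471 bp.

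The member called by DESeq2 was Ndufa13 -757 bp (chr8:69903215-69903415), which lies inside Tssk6 upstream of a complex I subunit also known as GRIM-19. Its counts were 195, 246, 169 and 197 in C57BL/6J control, 135, 185 and 202 after LPS, 254, 256, 207 and 204 in BALB/cJ control and 102 and 71.2 after LPS. BALB/cJ LPS was below every other library and C57BL/6J LPS overlapped its control. The log2 ratio was -1.41 ± 0.21 in BALB/cJ (edgeR adjusted p = 5.43e-06) and -0.20 ± 0.18 in C57BL/6J, and their difference 1.20 ± 0.27 (edgeR adjusted p = 0.0579), between 0.0102 and 0.702 over the alternatives, the highest without BALB/cJ LPS replicate 2. The next members by p were Ndufaf7 +2044 bp, where C57BL/6J fell by 1.25 (46.4, 40.8 and 59.7 after LPS) and BALB/cJ had a log2 ratio of 0.57 (difference -1.82 ± 0.49, edgeR adjusted p = 0.205), and Ndufaf3 +388 bp (difference -1.14 ± 0.35, edgeR adjusted p = 0.328).

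Between LPS-treated C57BL/6J and BALB/cJ, 7 of 273 members were called (3 higher in C57BL/6J, 4 lower), beside 5.72% of all peaks, and the count was 2 without BALB/cJ LPS replicate 2. Atp5o +40440 bp and Sdhaf1 -818 bp (50.6, 56.9 and 86.0 against 161 and 168, log2 -1.33 ± 0.32, edgeR adjusted p = 0.00606) were called as in controls. Ndufa12 +26560 bp was the largest of those lower in C57BL/6J, with 1.40, 5.09 and 1.59 against 53.1 and 33.4 (-3.90 ± 0.62, edgeR adjusted p = 5.24e-05). It also had 0.58, 1.60, 2.60 and 6.65 in C57BL/6J control and 17.1, 44.9, 13.4 and 26.5 in BALB/cJ control, where its mean was under the limit for testing. Cox7c +28081 bp (-2.41 ± 0.69), Ndufb9 +52203 bp in Mtss1 (-2.29 ± 0.60), Ndufs4 +11386 bp (2.21 ± 0.59) and Ndufa13 -757 bp (1.01 ± 0.22) completed the list. All 4 of these, and Sdhaf1, were lost without BALB/cJ LPS replicate 2. Cox7c +28081 bp was also lost without C57BL/6J LPS replicate 1 or 2, Ndufb9 without replicate 2 and Ndufa13 without replicate 2 or 3.

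In CB6F1/J hybrids 232 members had a matching peak. The deposited tables gave 2 readings of the LPS response that cannot both describe the same tags: columns of all tags held fewer tags than those of perfectly mapped tags at 41.1 to 73.8% of peaks in the 4 controls and at 0.0127 to 0.0146% in the 5 LPS libraries. With all tags 35 of 232 members were called (24 higher, 11 lower), beside 27.0% of all peaks, and with perfectly mapped tags 52 (24 higher, 28 lower), beside 24.9%. Member promoters had a median log2 ratio of 0.03 with all tags and -0.15 with perfect tags, where all promoter peaks had -0.16 and -0.25. These backgrounds are all hybrid peaks tested, and members are only hybrid peaks that match an inbred peak. Of 217456 hybrid peaks 78057 had such a match, and shares over these alone were not taken. The direction also turned with the scaling of all tags. With total counts 20 members were called higher and 23 lower, all peaks went from 34544 higher and 22612 lower to 25325 and 37557, the median of all peaks from -0.07 to -0.39 and that of member promoters to -0.27. With DESeq2 22 members were higher and 17 lower.

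The induced distal peaks stood out in both readings. Uqcrfs1 -19812 bp had 11.9, 10.3, 7.3 and 25.2 in control and 135, 159.9, 132, 197 and 187 in LPS libraries with all tags, a log2 ratio of 3.66 ± 0.30, and 3.83 ± 0.33 with perfect tags. Cox4i2 +36980 bp had 19.9, 11.8, 14.6 and 0 against 149.9, 146, 147, 123 and 156 (3.54 ± 0.33 and 4.60 ± 0.35), and no library overlapped. Atp5o +76545 bp (3.63 ± 0.34 and 2.22 ± 0.32) and Ndufs4 +52705 bp (2.38 ± 0.33 and 1.81 ± 0.36) were likewise higher, and Cox4i2 +9471 bp lower (-1.92 ± 0.37 and -2.25 ± 0.43). So were Ndufaf4 +1287 bp (-1.93 ± 0.30 and -1.56 ± 0.39) and Cox6c +67733 bp in Vps13b (-1.81 ± 0.43 and -1.88 ± 0.50). The peaks Ndufb6 -9842 bp, Cox6a2 -3520 bp, Ndufv2 +6578 bp, Atp5j2 +6228 bp and Ndufb4 -35108 bp were called with all tags (3.07, 2.82, -1.80, -1.57 and -1.43) and not with perfect tags (0.84, 0.85, -0.65, -0.58 and -0.90).

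Promoters depended on the reading. At Cox7c all tags gave 94.3, 82.3, 116 and 95.5 in control and 80.2, 95.5, 83.1, 81.8 and 60.8 after LPS (log2 -0.28 ± 0.22, edgeR adjusted p = 0.331), whereas perfect tags gave 286, 284, 422 and 213 against 74.7, 86.4, 68.6, 70.8 and 55.0 (-2.08 ± 0.22, edgeR adjusted p = 1.79e-08). At Ndufa10 the log2 ratios were 0.23 ± 0.20 and -1.38 ± 0.18, at Sdha -0.50 ± 0.18 and -1.29 ± 0.20, and at Ndufa4 -0.47 ± 0.19 and -1.10 ± 0.22. At Cox7c the LPS columns were close in the 2 readings and the control columns were not, so which reading describes the control promoters is not settled by these files.

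In the hybrid both parental alleles share each nucleus, and tags over a variant tell them apart. Of all 4483 hybrid peaks with enough such tags in the 4 controls, matched to an inbred peak or not, 6.07% were called. Of the members 18 had enough, and 1 was called (0 to 2 when 1 of the 4 animals was left out). Among those that did not pass the threshold, with normalised counts on the C57BL/6J allele set against those on the BALB/cJ allele, were Ndufa12 +26560 bp with 0.9, 1.1, 0 and 7.7 against 56.4, 33.8, 10.6 and 28.2 (-3.86 ± 0.81, edgeR adjusted p = 0.0577), Sdhaf1 -818 bp with 42.4, 28.0, 55.1 and 38.3 against 115, 73.3, 125 and 43.8 (-1.06 ± 0.25, edgeR adjusted p = 0.0708) and Ndufaf7 +2044 bp with 58.9, 50.4, 44.9 and 48.8 against 10.6, 34.9, 21.1 and 7.8 (1.60 ± 0.43, edgeR adjusted p = 0.0962). Each of these 3 had the same allele higher in all 4 animals, and each ratio had the sign seen between the inbred strains. They had the smallest p of the members not called and do not stand for the 18. Other allele ratios had the opposite sign to the control strains, as at Sdhaf1 -14222 bp (-0.46 against 0.47) and Cox7c +124 bp (-0.27 against 0.295). Some had the same sign, as at Ndufs6 -26 bp (0.63 and 0.46) and Cox7a1 -83 bp (-0.39 and -0.12). Atp5o +40440 bp was not among the 18.

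Genes of the pathway outside the rule are given beside the members, with 15.6% of all promoter peaks called lower in C57BL/6J and 20.0% in BALB/cJ. The shares of all promoter peaks called higher were 2.85% and 5.49%. Of 52 other assembly factors and electron carriers 46 had a promoter peak, of which 9 were called lower with LPS in C57BL/6J (median -0.51) and 12 in BALB/cJ (median -0.75), and 0 higher. Those lower in both strains were Coa7, Cox14, Cox16, Higd1a, Higd2a, Lrpprc, Sco2 and Tmem186, and Cycs, the gene of cytochrome c, was lower in C57BL/6J. Of 32 regulators of mitochondrial transcription 27 had a promoter peak, of which 2 were lower in C57BL/6J and 3 in BALB/cJ. Ppargc1b, a coactivator of ERR and NRF1, and Sirt1, a deacetylase, were lower in both strains, and Bnip3, a mitophagy receptor, in BALB/cJ. None of these genes' promoter peaks was called between control strains by edgeR, although at adjusted p under 0.05 alone 4 regulators were higher in C57BL/6J than in BALB/cJ and 3 lower in A/J than in C57BL/6J. The lists were chosen with earlier results of these data known.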

How the data were processed

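ATAC-seq measured chromatin accessibility in sorted Kupffer cells digested in the presence of flavopiridol, a transcription inhibitor. The authors trimmed reads to 30 bp, mapped them with Bowtie2 to mm10 and to strain genomes derived from it, shifted the tags to mm10 coordinates, and merged reproducible (IDR) peaks over groups (tool versions are not given in the sources used here). Per the authors' methods, raw tags were counted in windows of 1000 bp with HOMER. The deposited LPS values are whole counts, and the deposited inbred control values are expected counts in steps of 0.5 tags, rounded up to whole numbers here. The deposited hybrid tables hold counts per allele, for all tags, perfectly mapped tags or tags over a variant. Peaks on chromosomes 1 to 19, X and Y were kept.

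Counts were tested with edgeR 4.0.16 in R 4.3.3 (quasi-likelihood F test, TMM scaling), with 1 mean per group over all 17 inbred libraries, or over the 9 hybrid libraries, and with a term for the animal between alleles. Peaks with a mean normalised count over 16 (strains, alleles) or over 4 (LPS) in the groups compared were tested, and p-values were adjusted by Benjamini-Hochberg over all of them. A call required an adjusted p under 0.05 and an absolute log2 ratio over 1. SE is the log2 ratio divided by the square root of F. The study used DESeq2, which served as an alternative (DESeq2 1.42.0), along with other scalings, filters, rounding, a replicate block and leaving out each library. The fits were tested on simulated data.

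Every called member was named where at most 10 were called, otherwise the 6 largest log2 ratios in each direction, or the 3 of smallest p where none was called, together with the 2 highest promoter peaks per complex and each isoform gene. Members shown for contrast (Sdhb, and other members beyond this rule) were picked with their values in view. The members and gene lists were chosen with earlier results of these data known. Depth was 2.08 to 47.2 M tags in peaks per inbred library, and floors from a count of 0 (3 tags over the group) cover counting error only. Results for 1 member are not reported here. The hybrid peaks were matched by 50% reciprocal overlap.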

Additional observations from a re-analysis of the deposited data

Results flagged for a closer look

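In 3 of the 53 groups of values looked at, 1 library lay far from the others of its group, and chance gives about 1 in 20. At Ndufs4 +108 bp, BALB/cJ control replicate 3 was the highest at a normalised count of 83.2. At Sdhaf1 -818 bp, BALB/cJ control replicate 4, the deepest library, was the lowest at 116.2. At Ndufaf3 +388 bp, C57BL/6J control replicate 4 was the highest at 77.1.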

How the results depend on the processing

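No peak changed sign under an alternative run in the comparison for which it was named. Elsewhere signs did change: in the hybrid Ndufa10 -87 bp had 0.23 with all tags and -1.38 with perfectly mapped tags. Atp5g1 -111 bp had 0.67 and -0.61, and Ndufs8 -82 bp 1.04 and -0.38. The balance of called members turned in 3 comparisons. For LPS in C57BL/6J it went from 13 higher and 28 lower to 27 and 11 with scaling on promoter peaks, and in the hybrid from 24 and 11 to 24 and 28 with perfectly mapped tags, 20 and 23 with total counts, and 4 and 6 with variant-spanning tags. In BALB/cJ LPS it went from 23 and 33 to 37 and 12 with scaling on promoter peaks and 25 and 23 with total counts. Counts of called members changed with the setting as follows, and counts over all peaks changed as well. For C57BL/6J against BALB/cJ controls (3), the count was 7 by adjusted p alone, 15 without a minimum count, 9 with only the groups compared and 5 with the replicate block. For A/J against BALB/cJ (3) it was 8 without a minimum count and 1 with a minimum of 32. For A/J against C57BL/6J (5) it was 8 by adjusted p alone, 13 without a minimum count, 3 with a minimum of 32 and 2 with scaling on promoter peaks. By adjusted p alone the LPS counts were 63 of 274 in C57BL/6J (41), 91 of 280 in BALB/cJ (56) and 84 of 232 in the hybrid (35). Of all peaks 14.0% were then higher and 12.8% lower in C57BL/6J. The shares were 17.6% and 15.6% in BALB/cJ, and 21.5% and 13.5% in the hybrid. Variant-spanning tags summed over alleles gave 10 of 38 tested in the hybrid, against 35 of 232. All 27702 peaks tested with these tags had 3971 called higher and 3221 lower. For the difference of the LPS responses (0) the count was 1 with total counts, with values of 0.5 tags rounded down, with DESeq2 and with the replicate block. Between alleles (1) it was 0 without a minimum count, where 0 of all 213225 peaks were called, so this 0 says nothing of the members. It was 0 with a minimum of 8, 4 with DESeq2 and 4 with no replicate block. All peaks had 133 called higher and 139 lower in the main fit, 64 and 63 with a minimum of 8. They had 276 and 246 with DESeq2, and 251 and 230 with no replicate block. Leaving out 1 library gave 3 to 5 (C57BL/6J against BALB/cJ controls), 0 to 4 (A/J against BALB/cJ), 3 to 5 (A/J against C57BL/6J), 24 to 50 (LPS in C57BL/6J), 30 to 54 (LPS in BALB/cJ), 2 to 10 (between LPS groups), 0 to 2 (difference), 33 to 40 (hybrid LPS) and 0 to 2 (alleles). The difference of responses gained 2 calls without BALB/cJ control replicate 4, Ndufaf7 +2044 bp among them (adjusted p = 0.0225 by edgeR). Of the alternatives for peaks in the comparison that named them 796 kept direction and side of the threshold, 56 lost the call and 10 gained it. The cause was not tested.

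Same-numbered inbred libraries correlated between -0.10 and 0.37 in their deviations (29 pairs, median 0.07; 85 differently numbered pairs had a median of -0.05), and 8 of 17 correlated best with their own number, while in the hybrid the range was -0.13 to 0.01 with 0 of 9, so not every pair exceeded 0.1 and the numbers were not taken to pair the samples, although the inbred values are a hint that some numbers go together. The replicate block gave 43 and 51 LPS calls in C57BL/6J and BALB/cJ and 37 in the hybrid. Depth limits peaks of low count, and with 2 BALB/cJ LPS libraries the results there rest on few values.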
